A study of Homo sapiens with 6 samples.

Results

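The AP-1 family was followed through 8 genes, FOS, FOSB, FOSL1, FOSL2, JUN, JUNB, JUND and ATF3, which were taken by symbol from a table of 17211 genes. All 8 were listed and all 8 were tested. CAOV2, an ovarian cancer line that the labels also call primary cancer cells, was transfected with siRNA in 6-well plates and sequenced as poly(A) RNA. The siRNA was directed at TAZ in 3 libraries (siTAZ) whereas the other 3 received negative control siRNA (siNT, non-targeting), with 100 pmol of siRNA for 2 days and collection on day 3 in both groups. The labels name a single siRNA product against TAZ, so effects of that siRNA on other transcripts and effects of TAZ loss cannot be told apart. They call the samples biological replicates without naming separate thaws or days, so the spread that the p-values rest on may be technical.

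AP-1 is a dimer of basic leucine zipper (bZIP) proteins that binds DNA. JUN, JUNB and JUND can pair with each other or with a FOS protein, whereas FOS, FOSB, FOSL1 (FRA1) and FOSL2 (FRA2) need a JUN partner, and ATF3 pairs with JUN proteins and acts mostly as a stress-induced repressor. FOS, FOSB, JUN, JUNB and ATF3 are classic immediate early genes switched on by MAP kinase signalling, JUND is made more constantly, and FOSL1 is the FOS protein best known from invasive carcinoma cells. AP-1 and the TEAD factors that carry YAP and TAZ are known to occupy many of the same enhancers in epithelial cancer cells.

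Depth was 25478595 to 28928432 counted reads in siNT and 28458503 to 34488196 in siTAZ. A level is the deposited value, a gene's reads over its library's size factor, and group values are mean ± SD with n = 3. WWTR1, which encodes TAZ, read 4359, 4217 and 4258 in siNT replicates 1, 2 and 3 and 242, 277 and 280 in the siTAZ replicates, a 16.1-fold fall. Epithelial keratins were abundant, EPCAM and CDH1 much less so, and these markers differed between the groups. KRT8 was at 33785 to 36469 in siNT and 37933 to 40536 in siTAZ, KRT19 at 14123 to 15710 and 23013 to 24891, EPCAM at 492 to 512 and 1312 to 1387, CDH1 at 239 to 271 and 563 to 593, and KRT18 at 26250 to 28466 and 21379 to 23596. By contrast, the Müllerian markers PAX8 (20.5 to 44.9 in siNT, 14.5 to 20.8 in siTAZ) and MUC16 (8.38 to 15.7 and 6.23 to 9.18) were scarce and WT1 was not listed in the table. MSLN was scarce too, at 1.05 to 3.63 in siNT and 5.51 to 11.4 in siTAZ. Of 4 endothelial markers none was listed, and PTPRC and CD3E of leukocytes were not listed either. The 2 listed leukocyte markers summed to 71.6 to 83.8 in siNT and 154 to 204 in siTAZ, with CD68 at 51.3 to 62.8 and 45.2 to 57.8, and LYZ at 19.3 to 23.0 and 108 to 146. The 5 listed fibroblast markers summed to 5594 to 6387 in siNT and 6612 to 7502 in siTAZ. Most of the sum was LUM, whose groups overlapped (3555 to 4213 in siNT, 3473 to 4125 in siTAZ). The rest were higher in siTAZ: COL3A1 at 580 to 733 and 1299 to 1463, and PDGFRA at 1013 to 1068 and 1343 to 1493. COL1A1 was at 414 to 436 and 448 to 459, and PDGFRB at 4.83 to 13.9 and 28.5 to 37.4. The part of these marker differences in the AP-1 results was not tested.

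The short upstream stretches below are shown because they hold letters of the elements that cAMP-responsive and AP-1 factors bind near immediate early genes, and because they set 3 genes that fell beside JUND, which did not pass the test. They come from RefSeq (GRCh38.p14), run 5′ to 3′ on the gene's strand and end at the base before the annotated start. Capitals mark the CRE core TGACG on either strand, the CRE-like octamer TGACNTCA, and TATAAA. FOS lies at chr14:75278754-75278827 (+), FOSB at chr19:45467926-45467995 (+), JUN at chr1:58784048-58784180 (-) and JUND at chr19:18281623-18281832 (-).
FOS: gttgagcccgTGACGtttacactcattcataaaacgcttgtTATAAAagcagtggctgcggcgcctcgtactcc
FOSB: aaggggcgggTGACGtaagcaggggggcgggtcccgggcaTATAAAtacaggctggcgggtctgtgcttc
JUN: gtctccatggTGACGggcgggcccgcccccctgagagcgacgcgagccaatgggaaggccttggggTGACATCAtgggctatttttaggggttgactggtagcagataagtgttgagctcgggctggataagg
JUND: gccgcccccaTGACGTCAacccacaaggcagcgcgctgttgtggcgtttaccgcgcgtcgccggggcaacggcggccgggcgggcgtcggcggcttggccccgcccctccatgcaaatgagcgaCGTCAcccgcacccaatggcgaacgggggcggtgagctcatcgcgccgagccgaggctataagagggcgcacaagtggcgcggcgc

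The promoter table reached from 250 bases before to 50 after each start and matched 7 of the 8 members (ATF3 with 2 starts), all but FOSL1. FOS and FOSB share a layout, with TGACG beginning 64 and 60 bases before the start and TATAAA 33 and 30 bases before it. JUNB has TATAAA 31 bases before its start, but TGACG 137 bases before it. FOSL2 has TGACG 66 bases before its start and no TATAAA in its window. JUN has TGACATCA 67 bases before its start, and ATF3 has the same octamer 123 bases before one of its starts. JUND is the only member with the full palindromic CRE, TGACGTCA, which begins 200 bases before its start. The CRE core, searched on both strands and counted also inside TGACGTCA, was in 6 of the 7 members and in 24.6% of all 35116 windows. TGACGTCA was in 1.85% of all windows and TGACNTCA, which includes it, in 7.72%. The AP-1 site TGANTCA was in 1 member, FOSL2, beginning at the fifth base counted from the start, and in 7.71% of windows. The TEAD letters GGAATG (14.0% of windows) and the CArG box bound by SRF (1.29%) were in the windows of none of the 7, and TATAAA was in those of 4 (11.5%). Sequence outside the windows was not searched, so these counts do not say whether a member has such a site farther away. The letters of TGACG and TGACNTCA were added after the sequences had been read.

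With TAZ silenced, 7 of the 8 members fell, in both the FOS and the JUN branch, and JUND was the exception. The 7 falls ran from 1.54-fold in JUN and FOS to 2.44-fold in ATF3, and in none of the 7 did the siNT and siTAZ libraries overlap. Of all 17204 genes tested, 27.5% were called lower in siTAZ, 28.3% higher, and 55.8% in either direction, at an adjusted p under 0.05 in limma with Benjamini-Hochberg adjustment over all genes. Groups that do not overlap with siTAZ lower were found in 30.3% of genes. With total count scaling 4046 genes were lower and 5561 higher, against 4730 and 4874. A fall of at least 1.5-fold that also passed the test was found in 9.31% of all genes and in 7 of the 8 members. The limit was chosen after the members' values were seen and lies just under the smallest of the 7 falls. The member count therefore follows from that choice. All 8 members had a mean of at least 100, and among the 11466 genes with such a mean 33.7% were called lower and 7.13% lower by at least 1.5-fold. The median log2 fold change was -0.78 over the members and 0.00 over all genes. The value over all genes depends on the scaling and was 0.05 with total count scaling. In bulk RNA, fewer cells that express a gene and less of its RNA per cell cannot be told apart.

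**Figure D1:**
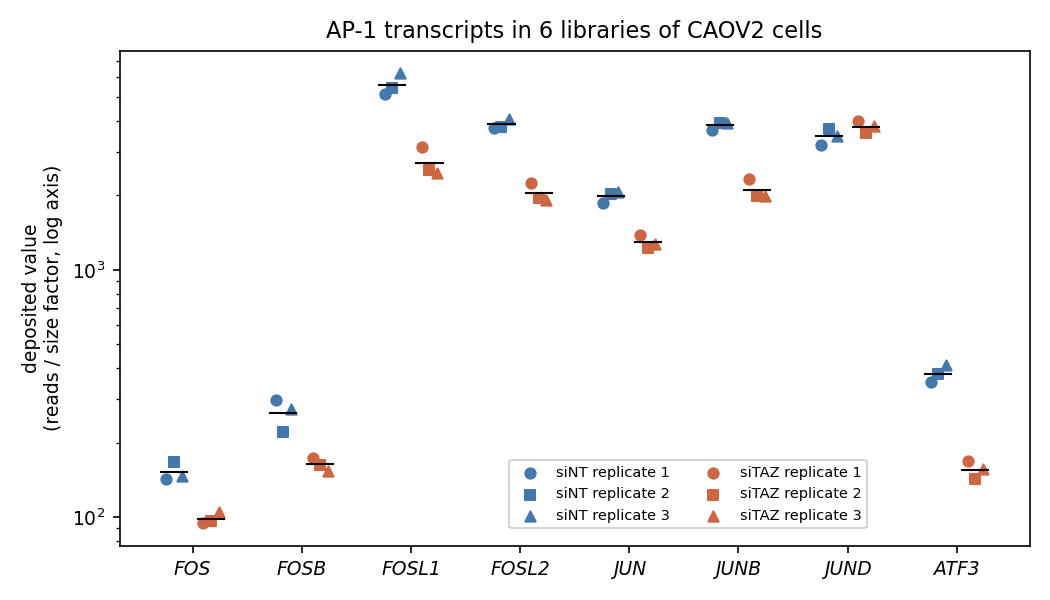
Level of each AP-1 member in each library (deposited value, reads divided by the size factor, log axis), with marker shapes for replicates and black bars for group means. In 7 members all siTAZ points lie below all siNT points, and in JUND the groups overlap.

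FOSL1 had the most reads of the FOS family. It read 5124, 5443 and 6238 in siNT replicates 1, 2 and 3 and 3148, 2530 and 2457 in the siTAZ replicates. The highest siTAZ library, replicate 1, was still far below the lowest siNT library. The fall was 2.07-fold (log2 fold change -1.05, SE 0.08, limma adjusted p = 1.1e-08). FOSL2, its closest relative, read 3759, 3796 and 4059 in siNT and 2254, 1956 and 1919 in siTAZ. The SD of FOSL2 was 164 in siNT and 183 in siTAZ, and the fall was 1.90-fold (log2 fold change -0.92, SE 0.06, limma adjusted p = 1.3e-09).

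FOS and FOSB, the fast-decaying immediate early members, were scarce in these growing cells. FOS read 142, 168 and 146 in siNT and 94.6, 96.4 and 105 in siTAZ, from 121 to 157 and 91 to 123 raw reads. The fall was 1.54-fold (log2 fold change -0.62, SE 0.12, limma adjusted p = 2.9e-04), with the widest 95% interval of the 8 members, -0.87 to -0.37. FOSB read 296, 221 and 273 in siNT and 174, 162 and 154 in siTAZ. Its siNT libraries were the more scattered group, with replicate 2 lowest, and the fall was 1.61-fold (log2 fold change -0.68, SE 0.11, limma adjusted p = 6.7e-05).

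JUN, the founding member and the partner of the FOS proteins, read 1868, 2019 and 2065 in siNT and 1378, 1223 and 1273 in siTAZ. The groups were well apart and the fall was 1.54-fold (log2 fold change -0.62, SE 0.06, limma adjusted p = 1.4e-07). JUNB, which can restrain JUN and drive its own targets, read 3685, 3921 and 3938 in siNT and 2334, 1982 and 1986 in siTAZ. It fell 1.83-fold (log2 fold change -0.88, SE 0.06, limma adjusted p = 3.0e-09). HOOK2 shares exon sequence with JUNB on the opposite strand in GENCODE release 29, and no source used here says whether the counting used strand. HOOK2 was at 754 ± 43.7 in siNT and 713 ± 18.8 in siTAZ and did not pass the test (limma adjusted p = 0.32). Whether the overlap affected the count of either gene was not tested.

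JUND, the JUN protein of resting and steadily growing cells, read 3195, 3723 and 3474 in siNT and 3995, 3561 and 3812 in siTAZ. The lowest siTAZ library lay below the highest siNT library. The log2 fold change was 0.13 (SE 0.06, 95% interval 0.01 to 0.26) and did not pass (limma adjusted p = 0.070). It passed, as higher, under total count scaling (0.013), without siNT replicate 2 (0.024) and without siTAZ replicate 2 (0.037), and the limma, voom, edgeR and DESeq2 adjusted p ran from 0.013 to 0.29 over 16 alternatives. The interval of JUND lay just above 0 and those of the other 7 members below it. Unlike the adjusted p, these intervals are per gene and not adjusted for the 17204 genes tested.

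ATF3, the stress-induced partner, read 352, 378 and 411 in siNT and 168, 142 and 157 in siTAZ. The lowest siNT library was above the highest siTAZ library by more than the spread within either group. The fall of 2.44-fold (log2 fold change -1.28, SE 0.10, limma adjusted p = 7.9e-09) was the largest of the 8 members.

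**Figure D2:**
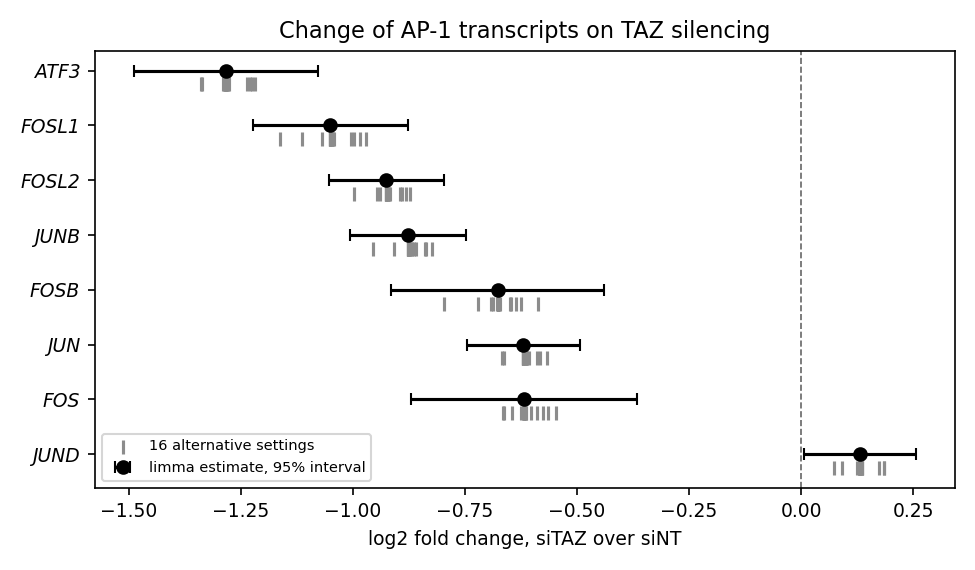
Log2 fold change of each member, siTAZ over siNT, with its unadjusted 95% interval from limma (black) and estimates under 16 other settings (grey ticks). ATF3 and FOSL1 lie at -1.28 and -1.05, FOS and JUN at -0.62, and JUND at 0.13.

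Replicate 1 was the highest siTAZ library in 7 of 8 members, all but FOS, and replicate 1 was the lowest siNT library in 7 of 8, all but FOSB. Of all genes tested, 40.5% were highest in siTAZ replicate 1 among the siTAZ libraries and 40.1% lowest in siNT replicate 1 among the siNT libraries. With either library left out, 7 members were still called lower in limma. Of the 17204 genes tested, 4625 were called lower without siNT replicate 1 and 4789 without siTAZ replicate 1.

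Levels of different genes were compared per kb of each gene's longest transcript. In siNT the order was FOSL1 (3356 ± 344 per kb), JUNB (2114 ± 77.7), JUND (1859 ± 142), FOSL2 (577 ± 24.4), JUN (560 ± 29.1), ATF3 (181 ± 14.1), FOS (70.5 ± 6.35) and FOSB (69.8 ± 10.2). FOSL2 and JUN overlapped between libraries, as did FOS and FOSB, and the lowest JUNB library (2025) was only just above the highest JUND library (1998). In siTAZ JUND stood first (2034 ± 117), ahead of FOSL1 (1625 ± 227) and JUNB (1154 ± 111), with the lowest JUND library at 1912 and the highest FOSL1 library at 1886. JUN (365 ± 22.2) then stood above FOSL2 (305 ± 27.4), with the lowest JUN library at 346 and the highest FOSL2 library at 336. ATF3 (74.1 ± 6.21) was next, and FOS (45.7 ± 2.56) and FOSB (43.3 ± 2.55) again overlapped. With the median transcript length instead, FOSL1 still stood first in siNT (4668 per kb, JUND 2932) and JUND in siTAZ (3207 per kb, FOSL1 2260), but JUND then stood above JUNB (2114) in siNT, and FOSL2 above JUN in siTAZ (608 and 365 per kb). FOS and FOSB then no longer overlapped, with FOS at 175 to 206 and FOSB at 71.6 to 95.9 per kb in siNT, and at 116 to 129 and at most 56.2 in siTAZ.

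Summed per kb, the 8 members read 8209, 8866 and 9290 in siNT and 6208, 5309 and 5419 in siTAZ, a mean 1.56 times lower in siTAZ. In the mix, every siTAZ library had a smaller share of FOSL1 and a larger share of JUND than any siNT library. FOSL1 made up 37.4%, 36.8% and 40.2% of the sum in siNT and 30.4%, 28.6% and 27.2% in siTAZ. JUND made up 20.9%, 22.5% and 20.1% in siNT and 34.5%, 36.0% and 37.8% in siTAZ, while its own level did not pass the test. JUNB held 24.1% ± 0.71 in siNT and 20.4% ± 0.27 in siTAZ, FOSL2 6.57% ± 0.23 and 5.39% ± 0.11, and ATF3 2.06% ± 0.04 and 1.31% ± 0.06 (SD, n = 3). For these 5 members the groups did not overlap, and the two-sided exact permutation test gave p = 0.1 for each, the smallest that 3 libraries against 3 allow. The share of JUN was 6.38% ± 0.09 in siNT and 6.47% ± 0.19 in siTAZ (exact permutation p = 0.5), and FOS and FOSB each held under 1% in every library. With the median transcript length the shares of FOS were 1.54% in siNT and 1.53% in siTAZ, and those of ATF3 3.65% and 2.29%. The FOS family as a whole held 46.3% ± 1.80 in siNT and 35.7% ± 1.57 in siTAZ. The shares of a library sum to the whole, so these values describe the mix and not separate changes.

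**Figure D3:**
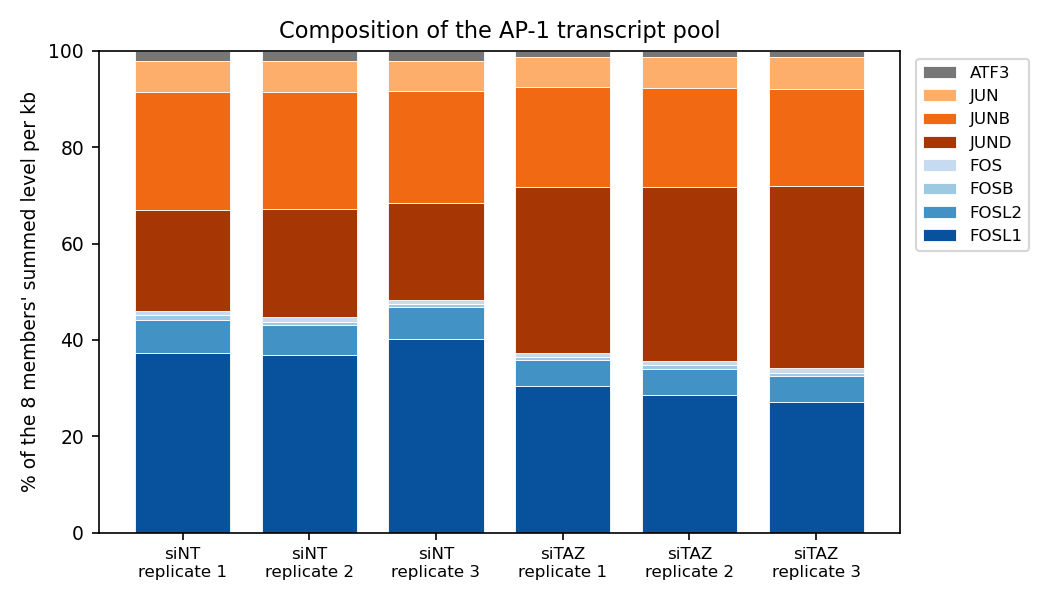
Share of each member in the 8 members' summed level per kb of longest transcript, one bar per library. JUND takes 20.1% to 22.5% in siNT and 34.5% to 37.8% in siTAZ, and FOSL1 takes 36.8% to 40.2% and 27.2% to 30.4%.

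Counts in the related lists stand beside all genes tested, of which 27.5% were called lower and 28.3% higher. The other bZIP genes that can pair with JUN or FOS moved both ways. Of 14 listed, 13 were tested (BATF was not in the table), 6 were called lower and 4 higher, 3 were not called, and the median log2 fold change was -0.32. MAFF, a small MAF protein that lacks an activation domain, fell 2.27-fold (589 ± 42.1 in siNT, 259.7 ± 4.39 in siTAZ, limma adjusted p = 1.6e-09). Its relative MAFK fell 1.45-fold (1872 ± 68.9 in siNT, 1293 ± 79.9 in siTAZ). MAF, a large MAF protein, rose 1.67-fold (268 ± 34.2 in siNT, 447 ± 38.8 in siTAZ). ATF2, a kinase-regulated partner of JUN, rose 1.32-fold (2084 ± 107 in siNT, 2760.4 ± 191 in siTAZ). Among bZIP genes outside AP-1, 27 of 30 were tested, 12 were called higher and 7 lower, 8 were not called, and the median was 0.06. CREB3L1 and CREB3L2, membrane-bound factors of the secretory pathway, rose 2.43-fold and 1.67-fold, and XBP1 and ATF6B of the unfolded protein response rose by log2 fold changes of 0.55 and 0.58. DDIT3 (CHOP) of the same response fell 1.92-fold, and ATF4 (log2 fold change -0.09) and ATF6 (-0.02) did not pass.

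Upstream, MAP kinase genes were split. Of 25 tested, 10 were higher and 9 lower, 6 were not called, and the median was -0.06. The count lower ran from 6 to 10 over the 16 alternatives. MAPK14, the p38-alpha kinase, fell 1.84-fold (2359 ± 29.6 in siNT, 1283 ± 63.3 in siTAZ, limma adjusted p = 4.8e-10), MAPK11, p38-beta, fell 1.72-fold, and MAPK8IP2, a JNK scaffold, fell 2.71-fold. MAP2K6, a kinase that activates p38, rose 1.95-fold (235 ± 15.4 in siNT, 457 ± 11.2 in siTAZ). SRF, which drives FOS and other immediate early genes with its cofactors, was covered by a list of 9, of which 5 were called lower, 2 higher and 2 neither (median -0.40). SRF itself fell 1.34-fold (2915 ± 209 in siNT, 2176 ± 175 in siTAZ, limma adjusted p = 2.5e-05). ELK3, an ETS partner of SRF, fell 2.04-fold (3592 ± 193 in siNT, 1763 ± 29.5 in siTAZ, limma adjusted p = 5.5e-11). MEF2A and MEF2D, relatives of SRF, fell 2.14-fold and 1.45-fold, and MRTFA, the actin-sensing coactivator, fell 1.32-fold. The 2 that rose were their relatives MEF2C (1.61-fold) and MRTFB (1.22-fold).

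Genes that set the life of AP-1 transcripts and proteins had a median of 0.13, with 6 of 13 higher, 3 lower and 4 not passing. ZFP36L2 and ZFP36, which bind AU-rich elements and promote mRNA decay, both rose, by log2 fold changes of 0.59 (3093 ± 188 in siNT, 4644 ± 60.7 in siTAZ) and 0.38 (926 ± 53.9 in siNT, 1208 ± 42.9 in siTAZ). HNRNPD and KHSRP, which also bind such elements, fell 1.14-fold and 1.15-fold, as did ITCH, a ubiquitin ligase, 1.16-fold. COP1, a ubiquitin ligase that targets JUN, rose 1.42-fold, and USP28, a deubiquitinase reported to stabilise JUN, rose 1.31-fold. Whether these changes bear on the AP-1 levels was not tested.

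Genes listed here as AP-1 targets mostly fell, but the list was written with earlier results of these data known. Of 33 listed, 26 were tested, 17 were called lower, 4 higher and 5 neither, and the median was -0.38, beside 27.5% lower, 28.3% higher and a median of 0.00 over all genes. IL11, a cytokine, fell 5.64-fold, and PLAU, urokinase, fell 3.78-fold (1726 ± 131 in siNT, 456 ± 48.8 in siTAZ, limma adjusted p = 4.0e-12). CD44, the hyaluronan receptor, fell 2.22-fold (9861 ± 499 in siNT, 4442 ± 147 in siTAZ). MT2A, a metallothionein, fell 1.98-fold (8729 ± 714 in siNT, 4401 ± 356 in siTAZ). The 4 that rose were EREG, a ligand of the EGF receptor family, MMP14 and MMP13, matrix proteases, and EDN1, endothelin, at 1.44-fold, 1.40-fold, 1.75-fold and 1.84-fold. Many of these genes are also known targets of other factors, and CCL2, IL1B, IL6, IVL, MMP12, MMP3 and MMP9 were not in the table.

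**Figure D4:**
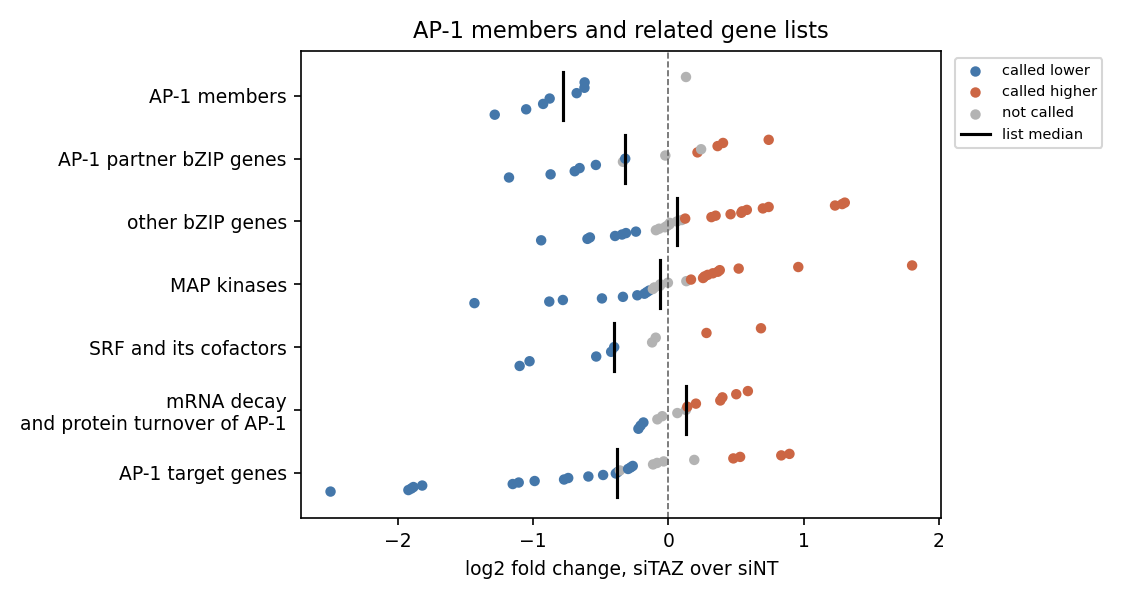
Log2 fold change of each tested gene of the AP-1 family and 6 related lists (points spread vertically by rank, black bars for medians, colours for calls at an adjusted p under 0.05 in limma). The AP-1 median lies at -0.78, the AP-1 targets at -0.38, and the MAP kinases at -0.06.

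Among 6296 named genes with a mean of at least 1000, the profiles nearest to FOSL1 over the 6 libraries, by Euclidean distance of centred log2 values, were those of GAL (0.14), FLNC (0.14) and PDLIM7 (0.18). GAL, galanin, read 4052, 4379 and 4719 in siNT and 2264, 1938 and 1981 in siTAZ. The profiles nearest to JUN were those of EEF1A2 (0.03), ALDOA (0.04) and CEBPB (0.04). CEBPB, another bZIP gene, read 2524, 2705 and 2833 in siNT and 1893, 1704 and 1730 in siTAZ. These distances describe 6 libraries in 2 groups and share the libraries' depth and scaling.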

How the data were processed

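The submitters' processing notes name the build hg19 and the tools FastQC, HISAT2, HTSeq and DESeq2. No source used here gives versions, annotation, strand setting or gene filter. The deposited values are a signal, the reads of a gene divided by 1 size factor per library: in every library 100% of them were whole multiples of 1 step, within 0.001 of a read, and the reads were recovered from that step. Symbols came from a table of Ensembl identifiers (16662 genes) and GENCODE release 29 (81), and 468 genes stayed unnamed. No gene was at 0 in all 6 libraries, and a gene absent from the table may have had reads.

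Limma 3.58.1 (R 4.3.3) with an intensity trend was fitted with group as the only term to log2(deposited value + 1), leaving out genes whose mean was under 1 (17204 tested). Log2 fold changes are on that scale and come out too small in low genes, and folds are ratios of mean deposited values. EdgeR 4.0.16 (9630 genes called on the recovered reads), DESeq2 1.42.0, voom and other settings were alternatives, and the fits were tested on simulated data. Data were handled with Python 3.11.15, pandas 2.3.3, numpy 2.4.6 and scipy 1.17.1 and drawn with matplotlib 3.10.9. Transcript lengths for levels per kb came from GENCODE release 29.

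The members and the lists were chosen with earlier results of these data known. Named genes are the 8 members, WWTR1, up to 4 called genes per list with the smallest adjusted p, exceptions to a count, and the 3 genes nearest to FOSL1 and to JUN. HOOK2 was named after the overlap was seen, and SRF because its list is named for it. No p-value is given for sums over members.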

Additional observations from a re-analysis of the deposited data

How the results depend on the processing

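Over 16 alternatives (pseudocount, filter, scaling, count tests, replicate block, each library left out), FOS, FOSB, FOSL1, FOSL2, JUN, JUNB and ATF3 were called lower in each, and only JUND changed its call. Over the same alternatives, 4046 to 4789 of all genes were called lower. Without 1 library at a time, the genes called ranged from 8540 to 9674, and under the other settings from 8701 with the replicate block to 9658 with a pseudocount of 10. Log2 fold changes lay between -1.16 and -0.97 in FOSL1, -1.34 and -1.22 in ATF3 and 0.07 and 0.18 in JUND. Total count scaling moved the median of all genes to 0.05. With the replicate block 7 members were called lower, as were 4262 of the 17204 genes tested, and JUND had a limma adjusted p of 0.14. No pairing by the numbers of the titles was seen. Deviations of same-numbered libraries correlated at -0.14, -0.08 and 0.02 across genes, and only siNT replicate 3 correlated best with its own number. With 3 libraries per group, these correlations cannot decide how the libraries were prepared. The small share differences of 3 members changed sign. That of FOS was 0.011 percentage points, and -0.0086 with the median transcript length and -0.030 to 0.066 without 1 library. That of JUN was 0.092 and -0.023 with the median length, and that of FOSB was -0.030 and -0.099 to 0.049 without 1 library. The cause was not tested. The few reads of FOS and FOSB limit the precision of their changes.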
